A study of Mus musculus with 6 samples.

Results

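The 10 genes described here encode stress-induced brakes on cell growth, apart from Mdm2, whose product degrades p53. They are the GADD45 family (Gadd45a, Gadd45b, Gadd45g), the BTG/TOB family (Btg1, Btg2, Tob1) and the CDK inhibitor gene Cdkn1a (p21). The others are the p53 ligase gene Mdm2 and the sestrin genes Sesn1 and Sesn2. The 10 genes were chosen by symbol, with earlier results of these data known. All 10 were found among the 24940 genes of the deposited table and passed the filter on low counts. Forskolin-treated and DMSO-treated mouse hepatic stellate cells were compared. Stellate cells lie between the sinusoidal endothelium and the hepatocytes, store vitamin A and are a main source of scar-forming cells in liver fibrosis. The cells were taken from wild-type female C57BL/6JBomTac mice and studied 2 days after isolation. They received either 5 µM forskolin, which activates adenylyl cyclase and so raises cAMP, or the same volume of DMSO, each for 3 h (3 libraries per group, replicates A, B and C). The labels do not say whether replicates are separate isolations or animals, so that a p-value here reflects only how much these samples vary, which may be technical.

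GADD45 proteins are small acidic stress proteins that bind the kinase MAP3K4, PCNA and the CDK1 complex. BTG and TOB proteins slow proliferation and bring the CCR4-NOT deadenylase to mRNAs. Several of the 10 genes, among them Cdkn1a, Mdm2, Sesn1, Btg2 and Gadd45a, are known targets of p53, and Btg2, Gadd45b and Gadd45g are also known as immediate-early or cytokine-induced genes.

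The counts are over the exons of 1 RefSeq transcript per gene, on mm10. Of the 10 genes, 4 lie on chromosome 10: Sesn1 (41810574 to 41908436, plus strand), Gadd45b (80930091 to 80932204, plus), Btg1 (96617001 to 96622811, plus) and Mdm2 (117688875 to 117710758, minus). Btg2 is on chromosome 1 (134074865 to 134079155, minus), Sesn2 on 4 (132492807 to 132510456, minus), Gadd45a on 6 (67035096 to 67037407, minus) and Tob1 on 11 (94211454 to 94215492, plus). Gadd45g is on chromosome 13 (51846675 to 51848474, plus) and Cdkn1a on 17 (29093769 to 29100722, plus).

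Library totals ran from 2770454 to 10607918 counts, and both C libraries were the shallowest of their group. Levels are given as CPM, counts scaled to a library of 1000000. Among the genes with the most counts per base, the C libraries stood above the others: over the top 10% of tested genes by CPM per kb, the median ratio of C to the mean of A and B was 1.25 with forskolin and 1.14 with DMSO, against 0.951 with forskolin and 0.975 with DMSO over all tested genes. Of the 10 genes, 7 were in that top 10%, and 9 were higher in C than in A and B with forskolin and 9 with DMSO. The share of all tested genes that were highest in C was not computed. Results for the 10 genes are therefore also given without both C libraries. The stellate cell markers Reln (498 to 655 CPM with forskolin, 481 to 627 with DMSO) and Pdgfrb (117 to 192 with forskolin, 101 to 194 with DMSO) were well expressed, while Lrat was low (5.47 to 7.71 with forskolin, 8.74 to 11.9 with DMSO). Of 12 stellate markers, 1 rose, the transcription factor gene Hand2 (log2 change 1.03 ± 0.19, adjusted p = 0.0152), a call lost when forskolin A (0.101) or DMSO B (0.104) was left out. Without both C libraries 3 rose, Hand2 (0.92, adjusted p = 8.20e-05), Des (0.43, 0.0206) and Col1a1 (0.36, 0.0137), and 0 fell. Of all tested genes, 5.86% were called higher and 3.9% lower in that fit, and 2.22% and 0.572% in the 6-library fit. Summed markers of other cell types were low. Hepatocyte markers summed to 52.3 to 70.1 CPM with forskolin and 19.2 to 29.9 with DMSO. Most of this was Trf (transferrin), the 1 of 4 tested genes of that list that rose (log2 change 1.44 ± 0.24, adjusted p = 0.00887), a call lost without forskolin A (0.0621) or B (0.0602) or DMSO B (0.0560), while Alb stayed at or under 7.22 CPM in every library. Macrophage markers summed to 13.8 to 18.3 CPM with forskolin and 18.7 to 22.8 with DMSO (Marco at 0), and endothelial markers to 8.76 to 14.4 with forskolin and 5.48 to 13.5 with DMSO. Cholangiocyte markers summed to 8.66 to 43.9 CPM with forskolin and 11.9 to 19.8 with DMSO (Krt7 at 0), and 0 of 3 tested were called. In the fit without both C libraries, Spp1 (log2 change 1.203, adjusted p = 0.00200) and Sox9 (4.39, adjusted p = 0.00298) of these 3 were called higher. Sox9 had 5.28, 5.09 and 0 CPM in forskolin A, B and C, against 0, 0.423 and 5.95 CPM in DMSO A, B and C. For Sox9 the C libraries thus ran opposite to A and B. Mesothelial markers reached at most 2.83 CPM with forskolin and 2.22 with DMSO (Upk3b and Gpm6a at 0). Their part in the results below was not tested.

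Forskolin raised 3 of the 10 genes, Gadd45a, Btg2 and Btg1, and lowered 0 at an adjusted p of 0.05 (edgeR quasi-likelihood test, Benjamini-Hochberg over all 12233 tested genes). Over all tested genes, 2.22% were called higher and 0.572% lower, 2.8% in all. Such shares do not test the set, which was chosen with earlier results of these data known. The edgeR likelihood ratio test, limma-voom and DESeq2 also called 3 of the 10 higher and 0 lower. Of all 12233 tested genes, these tools called 458, 371 and 409 higher and 190, 131 and 144 lower. At an unadjusted p under 0.05 there were 5 genes, all higher, where 12.1% of tested genes passed in either direction. With 1 library left out at a time, the number called higher was 1 without forskolin A, DMSO A or DMSO B, 2 without forskolin B, and 3 with forskolin C or DMSO C left out. In 4 genes every forskolin value lay above every DMSO value, which held for 10.7% of tested genes. The median log2 change was 0.44 over the 10 genes and 0.00495 over all tested genes. Without both C libraries 5 were called higher, Gadd45b and Tob1 being the additions, and 0 lower, against a background of 5.86% higher and 3.9% lower. In bulk RNA, a change in the number of cells of a type and a change in RNA per cell cannot be told apart.

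**Figure D1:**
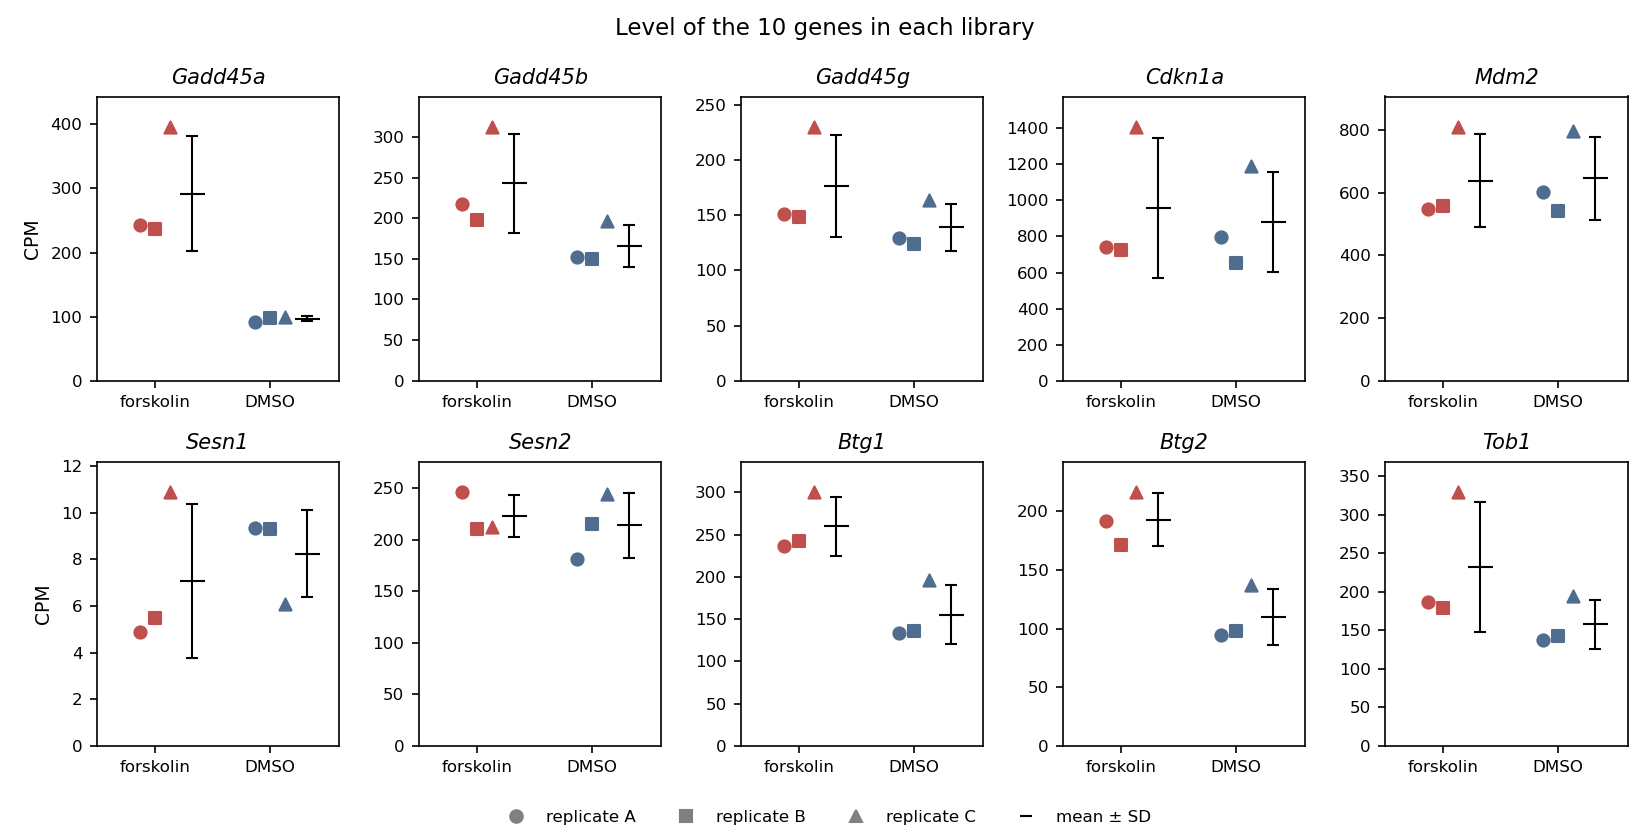
Level of each gene in CPM (counts scaled to TMM library size) in every library, with forskolin left of DMSO, replicates A to C as circle, square and triangle, and the mean ± SD beside them (n = 3 per group). Gadd45a separates the groups most clearly, at 237 to 396 CPM with forskolin and 92.3 to 99.6 CPM with DMSO, while Cdkn1a and Mdm2 differ more between replicate C and the others than between the groups.

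Gadd45a, the DNA damage-inducible founder of its family, changed most. It had 243, 237 and 396 CPM in forskolin A, B and C, against 92.3, 97.4 and 99.6 CPM in DMSO A, B and C. All forskolin libraries stood above all DMSO libraries, and forskolin C stood above the other forskolin libraries. The log2 fold change was 1.59 ± 0.19 (SE, adjusted p = 9.20e-04), a 3.01-fold rise with a 95% interval of 2.25 to 4.02. Without both C libraries it was 1.33 ± 0.08 (adjusted p = 3.26e-10). Gadd45a was called in all 20 fits, and its adjusted p ranged from 1.42e-26 to 0.0119 over the alternatives.

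The Gadd45a row (NM_007836) overlaps a noncoding gene on the other strand, E230016M11Rik, at 67036599 to 67080652. In GENCODE M21 they share 337 exonic bases, 19.1% of the 1764 exonic bases that Gadd45a has there. The counted Gadd45a transcript has 1218 bases, and the shared part of these was not computed. E230016M11Rik averaged 82.2 ± 30.6 CPM with forskolin and 25.0 ± 3.34 CPM with DMSO (SD, n = 3 each), a log2 change of 1.67 ± 0.25 (adjusted p = 0.00415). In the A and B libraries alone that change was 1.26 ± 0.15. The library kit named in the labels does not mark strand, so reads from the shared bases cannot be assigned to either gene. The neighbour's mean level was below that of Gadd45a in both groups.

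Gadd45b, which NF-kB and TGF-beta signalling induce in other cells, had 218, 198 and 312 CPM in forskolin A, B and C, against 152, 149 and 196 CPM in DMSO A, B and C. The groups did not overlap, though forskolin B and DMSO C were nearly level. Its log2 change of 0.55 ± 0.18 did not pass the threshold (adjusted p = 0.199). It was 0.34 with forskolin C alone left out. In the A and B libraries alone it was 0.46 ± 0.08 and passed (adjusted p = 5.05e-04). With all 6 libraries it passed with no filter (adjusted p = 0.00312), with a replicate block (0.00334) and by limma-voom with sample quality weights (0.0208). The adjusted p ranged from 5.05e-04 to 0.532 over all alternatives. Gadd45g, the family member first described as cytokine-responsive, had 151, 149 and 230 CPM in forskolin A, B and C and 130, 124 and 164 CPM in DMSO A, B and C. These groups overlapped, since DMSO C exceeded forskolin A and B. The log2 change was 0.34 (95% interval −0.06 to 0.74, adjusted p = 0.523), without both C libraries 0.24 (adjusted p = 0.0917), and with forskolin C alone left out 0.12 (adjusted p = 0.741). Its adjusted p over the alternatives ran from 0.0770 to 0.817.

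Ratios of family members within a library do not depend on its scaling. The log2 ratio of Gadd45a to Gadd45b counts was 0.16, 0.26 and 0.34 in forskolin A, B and C, against −0.72, −0.62 and −0.98 in DMSO A, B and C. Gadd45a thus had more counts than Gadd45b in every forskolin library and fewer in every DMSO library. The means differed by 1.02, and for Gadd45a over Gadd45g by 1.23, where the libraries ran from 0.67 to 0.78 with forskolin and from −0.72 to −0.35 with DMSO. For Gadd45b over Gadd45g the log2 ratio was 0.46 ± 0.06 with forskolin and 0.25 ± 0.02 with DMSO (SD, n = 3 each), again without overlap. Each of these comparisons had an exact two-sided permutation p = 0.1, the smallest that 3 libraries against 3 allow (adjusted p = 0.2 over the 6 pairs compared).

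**Figure D2:**
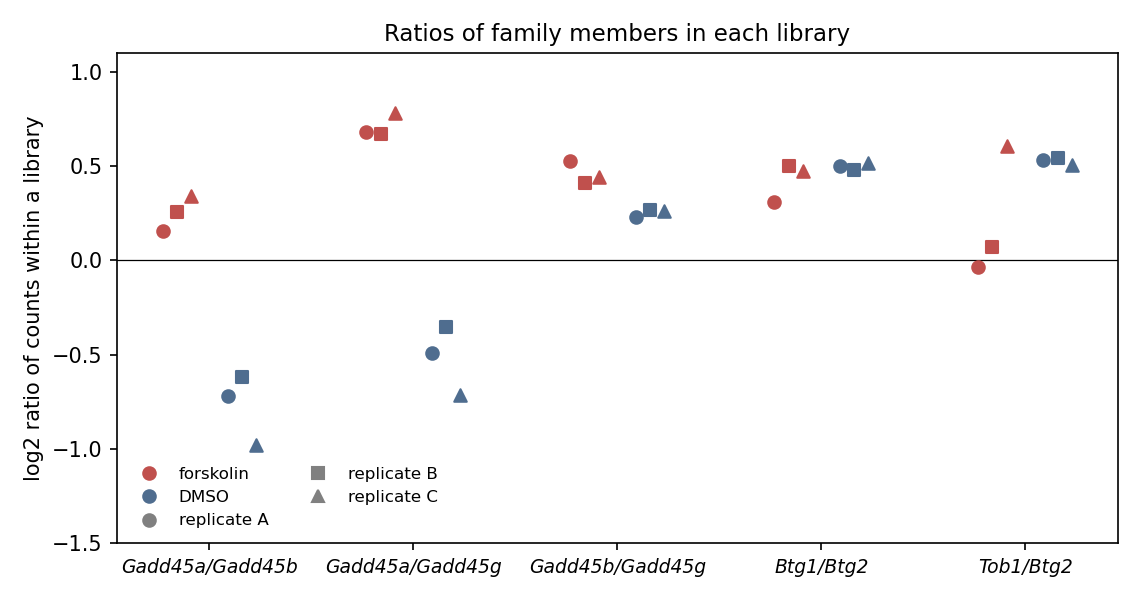
Log2 ratio of the counts of family members within each library (0.5 count added to each), with forskolin left of DMSO in each pair and replicates A to C as circle, square and triangle. Ratios of Gadd45a to its relatives are above 0 with forskolin and below 0 with DMSO, whereas Btg1/Btg2 and Tob1/Btg2 overlap between the groups.

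By the distance between centred log2 CPM profiles over the 6 libraries, the 3 genes of at least 10 CPM most like Gadd45a were Tiparp, Trib1 and Ier3, of 8762 compared with predicted genes left out. Tiparp, a mono-ADP-ribosyltransferase, averaged 641 ± 172 CPM with forskolin and 186 ± 10.1 CPM with DMSO (distance 0.319). Trib1, a pseudokinase, averaged 241 ± 38.4 CPM with forskolin and 85.3 ± 1.83 CPM with DMSO (distance 0.336). Ier3, an immediate-early gene, averaged 528 ± 188 CPM with forskolin and 203 ± 17.2 CPM with DMSO (distance 0.340; SD, n = 3 each). In Tiparp, Trib1 and Ier3, as in Gadd45a, forskolin C was the highest library. The Ier3 call was lost without DMSO B (adjusted p = 0.0540). A profile over 6 libraries in 2 groups mainly reflects the group difference.

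Btg2 and Btg1, antiproliferative genes of the same family, rose to a similar extent. Btg2 had 191, 171 and 216 CPM in forskolin A, B and C, against 94.7, 97.6 and 137 CPM in DMSO A, B and C. No DMSO library reached the lowest forskolin library. The log2 change was 0.82 ± 0.16 (adjusted p = 0.0190), a 1.77-fold rise (95% interval 1.39 to 2.25). Btg1, which is known as a gene of quiescent cells, had 237, 242 and 300 CPM in forskolin A, B and C, against 134, 136 and 196 CPM in DMSO A, B and C. Here too the groups did not overlap, and the log2 change was 0.75 ± 0.16 (adjusted p = 0.0384), a 1.68-fold rise (1.31 to 2.15).

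Both calls depended on single libraries, while the sizes of change did not. Leaving out forskolin A gave Btg2 an adjusted p = 0.0805, leaving out DMSO A 0.109, and leaving out DMSO B 0.126. For Btg1 the adjusted p was 0.0857 with forskolin A left out, 0.0781 with forskolin B, 0.194 with DMSO A, 0.211 with DMSO B, and 0.0656 with upper quartile scaling. Over all alternatives the log2 change stayed between 0.73 and 0.99 for Btg2 (adjusted p from 4.56e-07 to 0.126) and between 0.64 and 0.93 for Btg1 (1.98e-07 to 0.211). From A and B alone, the changes were 0.91 ± 0.09 for Btg2 and 0.82 ± 0.08 for Btg1 (adjusted p = 4.62e-07 and 1.98e-07). The log2 ratio of Btg1 to Btg2 was 0.43 ± 0.10 with forskolin and 0.50 ± 0.02 with DMSO (SD, n = 3 each), overlapping between groups (exact two-sided permutation p = 0.3, adjusted p = 0.45 over the 6 pairs).

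Tob1, a larger relative that binds CCR4-NOT and poly(A)-binding protein, had 187, 180 and 330 CPM in forskolin A, B and C, against 137, 142 and 195 CPM in DMSO A, B and C. DMSO C exceeded forskolin A and B, so the groups overlapped. Its log2 change of 0.55 ± 0.23 did not pass (adjusted p = 0.360). It was 0.23 with forskolin C alone left out (adjusted p = 0.542), and without both C libraries it was 0.38 ± 0.08 and passed (adjusted p = 0.00271). With all 6 libraries Tob1 passed with no filter (adjusted p = 0.00315) and with a replicate block (0.0109). Over all alternatives its adjusted p ran from 0.00271 to 0.683. The log2 ratio of Tob1 to Btg2 was −0.03, 0.07 and 0.61 in forskolin A, B and C and between 0.51 and 0.54 in the DMSO libraries. Forskolin C thus stood with the DMSO libraries in that ratio (exact two-sided permutation p = 0.4, adjusted p = 0.48 over the 6 pairs).

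**Figure D3:**
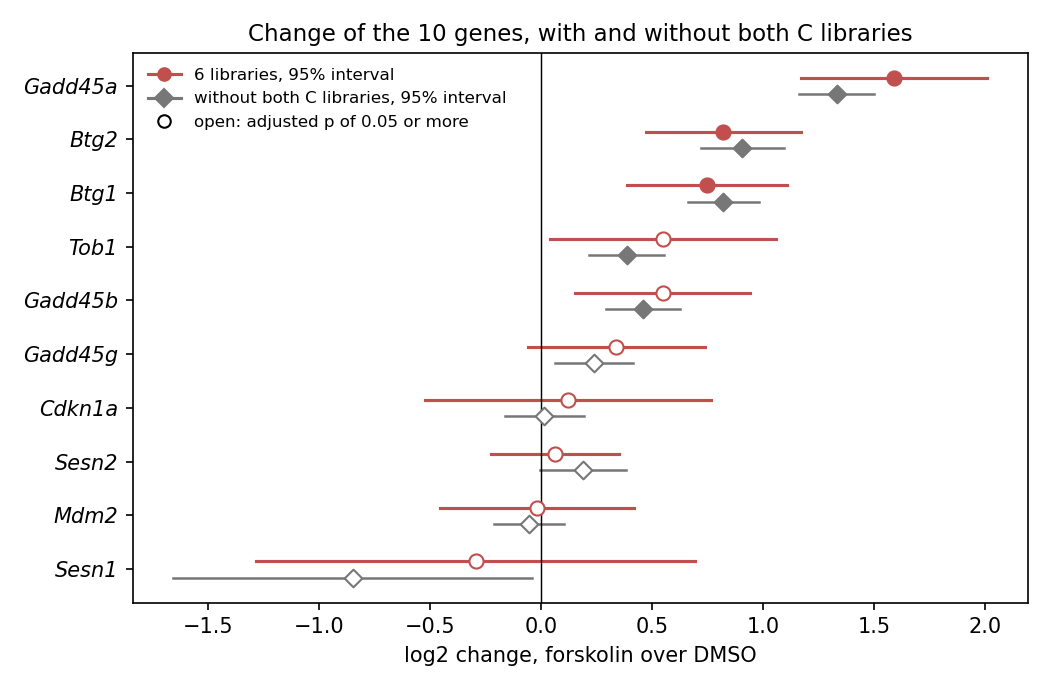
Log2 change of each gene, forskolin over DMSO, with its 95% interval, in all 6 libraries (circles) and without both C libraries (diamonds); filled symbols passed an adjusted p of 0.05. Gadd45a, Btg2 and Btg1 pass in both, Tob1 and Gadd45b without the C libraries, and the intervals of Cdkn1a, Mdm2 and Sesn2 include 0 in both.

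The promoters of these genes were read for the cAMP response element (CRE) TGACGTCA, which CREB binds, its core TGACG and the p53 decamer, a consensus that p53 dimers bind. Each window ran from 250 bases before a transcript start to 50 after it (RefSeq, GRCm38.p6; all 10 genes matched, with 12 windows since Cdkn1a and Sesn1 have an additional start), and both strands were searched. The full CRE was found in 1 of the 12 windows, that of Btg2, 166 bases before the start, against 1.79% of all 32851 promoter windows. The core TGACG, which every full CRE contains, was found at the deposited transcript's start of Btg1 (187 and 103 bases before it), Btg2, Tob1 (96 before) and Mdm2 (28 after), and at the additional start of Sesn1 (61 before), against 20.8% of all windows. Neither was found in the windows of Gadd45a, Gadd45b and Gadd45g. The TATA box TATAAA, also searched, was found in 4 of the 12 windows, those of Gadd45b, Gadd45g, Btg1 and Tob1, against 13.6% of all windows. The CCAAT box, the last motif searched, was found in 10 of the 12 windows, those of every gene but Cdkn1a, against 37.4% of all windows. Sequences of the BTG/TOB genes that hold matches are shown in their own direction, with every TGACG, or CGTCA where it lies on the other strand, in capitals:
Btg2, chr1:134079236-134079355, minus strand: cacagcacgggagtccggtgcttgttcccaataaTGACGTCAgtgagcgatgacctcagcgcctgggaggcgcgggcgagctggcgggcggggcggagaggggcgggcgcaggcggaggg
Btg1, chr10:96616801-96616920, plus strand: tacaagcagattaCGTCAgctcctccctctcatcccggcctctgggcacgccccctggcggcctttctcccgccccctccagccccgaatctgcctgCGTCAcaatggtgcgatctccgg
Tob1, chr11:94211324-94211383, plus strand: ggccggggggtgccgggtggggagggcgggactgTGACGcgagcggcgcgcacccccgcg
A match is a description of the letters and not a measured binding site.

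The p53 decamer was found in 4 of the 12 windows, against 8.36% of all windows. These were the windows of Gadd45a (40 bases before the start), Mdm2 (186 before) and the additional starts of Cdkn1a (73 and 51 before) and Sesn1 (173 before). The stretches of Gadd45a, which rose, and of Cdkn1a, a known p53 target whose level did not pass the test, are shown with the decamers in capitals:
Gadd45a, chr6:67037408-67037527, minus strand: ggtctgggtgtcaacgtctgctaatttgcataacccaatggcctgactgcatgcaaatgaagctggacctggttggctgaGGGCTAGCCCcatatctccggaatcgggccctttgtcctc
Cdkn1a, additional start, chr17:29090889-29090948, plus strand: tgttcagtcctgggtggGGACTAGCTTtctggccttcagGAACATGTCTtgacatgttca
The deposited Cdkn1a row uses the other start (NM_007669, chromosome 17, 29093769 to 29100722), whose window held neither motif.

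**Figure D4:**
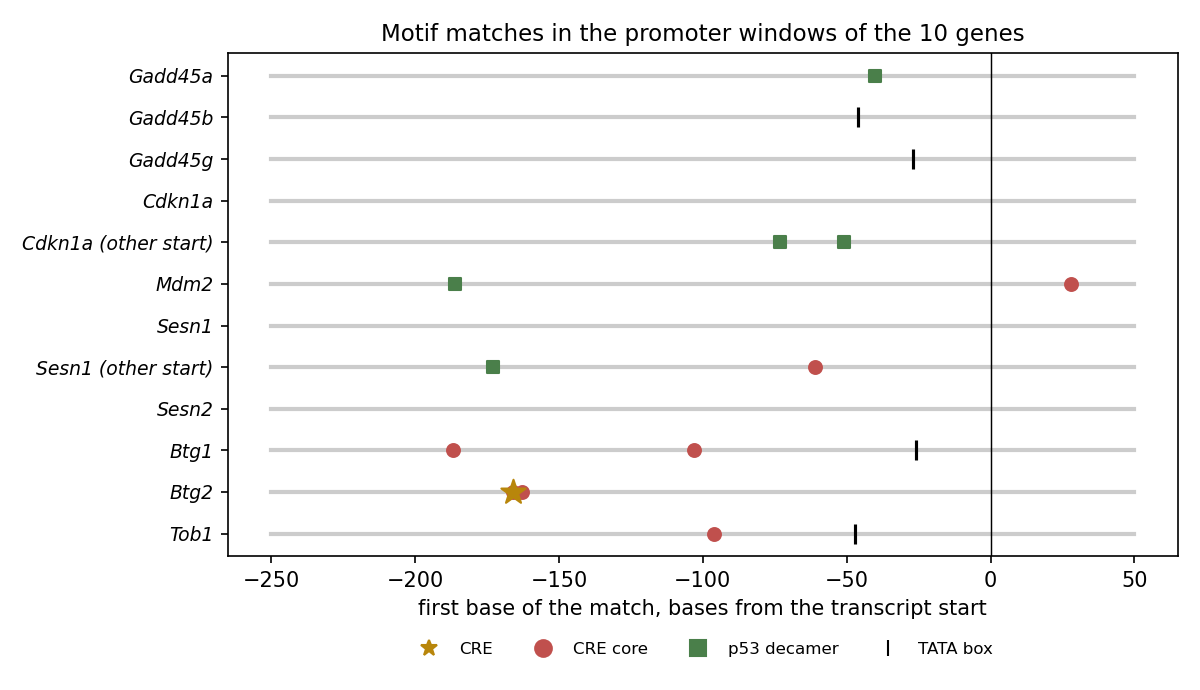
Position of motif matches in each promoter window, in bases from the transcript start (0), 1 line per start. Btg2 alone of these windows holds the full CRE (star, drawn over its core), Btg1, Tob1, Mdm2 and Sesn1 hold the core, bars mark the TATA box, and the p53 decamer is in windows of Gadd45a, Cdkn1a, Mdm2 and Sesn1.

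Cdkn1a, whose product p21 inhibits CDK2 and binds PCNA, was the most highly expressed of the 10 genes per length. It had 743, 727 and 1408 CPM in forskolin A, B and C, against 796, 656 and 1193 CPM in DMSO A, B and C. The C libraries were far above A and B in both groups, and the groups overlapped. The log2 change of 0.12 ± 0.29 did not pass (adjusted p = 0.945), and its 95% interval of −0.52 to 0.76 corresponds to 0.697 to 1.70-fold. Without both C libraries it was 0.01 (95% interval −0.16 to 0.19, adjusted p = 0.958). The estimate was −0.25 without forskolin C and −0.05 without DMSO B.

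Mdm2, the ubiquitin ligase that degrades p53 and is itself a p53 target, had 548, 558 and 810 CPM in forskolin A, B and C, against 603, 542 and 796 CPM in DMSO A, B and C. The C library was the highest in each group, and the groups overlapped. The log2 change was −0.02 (95% interval −0.46 to 0.42, adjusted p = 0.996), and −0.05 without both C libraries (−0.21 to 0.10). The estimate was above 0 when forskolin A (0.08), forskolin B (0.07) or DMSO C (0.15) was left out.

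Sestrins sense leucine and restrain mTORC1 through GATOR2. Sesn2, the ATF4- and p53-induced member, had 246, 210 and 212 CPM in forskolin A, B and C, against 182, 215 and 245 CPM in DMSO A, B and C. The groups overlapped, with a log2 change of 0.06 (95% interval −0.23 to 0.35, adjusted p = 0.933). It was 0.19 without both C libraries (adjusted p = 0.256), and it was −0.02 with forskolin A left out and −0.04 with DMSO A left out. Sesn1 was the lowest of the 10 genes, at 4.90, 5.48 and 10.9 CPM in forskolin A, B and C, against 9.33, 9.32 and 6.10 CPM in DMSO A, B and C. Replicate C ran opposite to A and B, as the highest forskolin and the lowest DMSO library. The log2 change was −0.30 ± 0.44 (adjusted p = 0.892), and −0.85 ± 0.39 without both C libraries (adjusted p = 0.214), where 4 libraries of 47 to 92.5 counts remained. With 1 library left out it ran from −0.69 (forskolin C) to −0.075 (forskolin A).

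Levels per transcript length can be ordered between genes, on the scale of CPM per kb of the deposited length. In forskolin cells the means were 503 ± 204 for Cdkn1a, 240 ± 74.0 for Gadd45a, 207 ± 48.1 for Mdm2, 193 ± 48.5 for Gadd45b, 165 ± 43.0 for Gadd45g and 102 ± 37.1 for Tob1. They were 84.2 ± 7.69 for Sesn2, 62.6 ± 7.35 for Btg2, 51.9 ± 7.01 for Btg1 and 2.24 ± 1.04 for Sesn1 (SD, n = 3). Neighbours from Gadd45a down to Sesn2 overlapped pairwise, as did Btg2 and Btg1. In DMSO cells Gadd45a stood sixth, at 79.2 ± 3.08, beside Sesn2 (80.9 ± 11.9) and Tob1 (69.2 ± 13.9), with which it overlapped. Above them in DMSO cells were Cdkn1a (462 ± 146), Mdm2 (210 ± 43.0) and the overlapping Gadd45b (132 ± 20.9) and Gadd45g (130 ± 19.9), and below them Btg2 (35.6 ± 7.66), Btg1 (31.05 ± 7.01) and Sesn1 (2.60 ± 0.588). Gadd45a thus ranked second with forskolin and sixth with DMSO.

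Few other genes of the p53 pathway were called in the 6-library fit. The share with an unadjusted p under 0.05 was above that of all tested genes. Of 28 tested (Eda2r, Trp53, Pmaip1 and others), 0 passed higher and 1 lower by edgeR, where 2.8% of all tested genes passed in either direction. At an unadjusted p below 0.05 there were 9 of the 28, most of them lower, where 12.1% of all tested genes passed. Each of the 3 other tools called 1 higher and 1 lower, where of all 12233 tested genes they called 371 to 458 higher and 131 to 190 lower. The median log2 change was −0.06. The gene that fell was Eda2r, a TNF receptor family gene that p53 induces, at 177 ± 0.529 CPM with forskolin and 247 ± 25.9 CPM with DMSO (log2 change −0.48 ± 0.11, adjusted p = 0.0452). That call was lost when any 1 library was left out except forskolin C, at an adjusted p of 0.217 for forskolin A, 0.185 for forskolin B, 0.133 for DMSO A, 0.109 for DMSO B and 0.0994 for DMSO C, and with RLE factors (0.0538). Trp53 itself, named after its value was seen, was at 187 ± 18.0 CPM with forskolin and 212 ± 11.8 CPM with DMSO (log2 change −0.17, 95% interval −0.42 to 0.07). Pmaip1, which encodes the p53-induced BH3 protein Noxa and was also named after its value was seen, had 22.7, 27.6 and 33.4 CPM in forskolin A, B and C and 6.86, 7.70 and 18.3 CPM in DMSO A, B and C. Its log2 change of 1.41 ± 0.38 did not pass in the 6-library fit (adjusted p = 0.0961), and did by DESeq2 (0.0173) and without both C libraries (8.75e-05), in a range of 8.75e-05 to 0.376. With both C libraries left out, 3 genes of the list passed higher and 3 lower, where 5.86% of all genes in that fit passed higher and 3.9% lower.

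Lists of partners of the 3 families are read against the 2.8% of all tested genes called and the 12.1% with an unadjusted p under 0.05. The likelihood ratio test, limma-voom and DESeq2 called 371 to 458 of all 12233 tested genes higher and 131 to 190 lower. Without both C libraries, 5.86% of all genes in that fit were called higher and 3.9% lower. Of 17 tested genes of the BTG/TOB family and CCR4-NOT, 0 passed by edgeR and 2 had an unadjusted p under 0.05 (1 called higher by each of the other 3 tools), while 1 passed higher and 1 lower without both C libraries. Its most abundant gene, Pabpc1 (poly(A)-binding protein), had a log2 change of 0.09 ± 0.26, and below 0 without both C libraries (−0.02), without forskolin C (−0.23) or DMSO B (−0.05) and with sample quality weights (−0.01). Of 19 G1 cyclins, CDKs and CDK inhibitors, 0 passed by edgeR and 3 had an unadjusted p under 0.05, with 1 called lower by each of the other 3 tools and without both C libraries. Ccnd2 (cyclin D2), the most abundant, had a log2 change of 0.12 ± 0.19, and at −0.02 without DMSO C. Of 11 GADD45 partners and stress kinases, 0 passed by any of these 4 tests and 0 had an unadjusted p under 0.05, while 2 passed lower without both C libraries. Map2k3 (MKK3, an activator of p38), the most abundant, had a log2 change of −0.19 ± 0.17, and at −0.26 with an adjusted p = 0.0486 without both C libraries, in a range of 0.0486 to 0.953. Of 13 tested proliferation genes, 0 passed by any of the 4 tests, 0 passed without both C libraries and 0 had an unadjusted p under 0.05. Pcna, the most abundant of them, had a log2 change of 0.34 ± 0.26, which was −0.01 without forskolin C.

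Among 23 sestrin, GATOR and mTORC1 genes, 1 rose and 0 fell. That gene was Ddit4 (REDD1, which restrains mTORC1 through TSC2), at 209, 225 and 210 CPM in forskolin A, B and C, against 68.3, 70.7 and 117 CPM in DMSO A, B and C. Its log2 change was 1.36 ± 0.19 (adjusted p = 0.00255), and the groups did not overlap. The list held 4 genes with an unadjusted p under 0.05, and 2 rose and 0 fell without both C libraries. Of 16 ATF4 and stress response genes, 2 rose and 0 fell, with 4 at an unadjusted p under 0.05 and a median of 0.36. Over all tested genes, 2.22% were called higher and 0.572% lower, and 12.1% had an unadjusted p under 0.05. Cebpb, a bZIP factor of the acute-phase response, rose by 1.36 ± 0.14 on the log2 scale (211 ± 35.0 CPM with forskolin and 82.1 ± 6.29 CPM with DMSO), and Atf3, an immediate-early stress repressor, by 1.18 ± 0.13 (181 ± 28.0 CPM with forskolin and 79.9 ± 4.08 CPM with DMSO). With A and B alone, 8 of the 16 rose and 0 fell, where 5.86% of all genes in that fit were called higher and 3.9% lower. The 3 other tools called 0 lower in either list and 3 or 4 of the ATF4 list higher. Over all 12233 tested genes they called 371 to 458 higher and 131 to 190 lower.

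FOXO factors and targets, a group known for stress and fasting signals, numbered 10 tested, of which 1 rose and 1 fell, with a median of 0.65. Over all tested genes, 2.22% were called higher and 0.572% lower. At an unadjusted p under 0.05 there were 7 of the 10, where 12.1% of all tested genes passed. DESeq2 and the likelihood ratio test called 2 higher each, limma-voom 3, each with 1 lower. Of all 12233 tested genes, these tools called 371 to 458 higher and 131 to 190 lower. Irs2, the insulin receptor substrate, rose to 371 ± 2.39 CPM with forskolin, against 184 ± 15.9 CPM with DMSO (log2 change 1.01 ± 0.11, adjusted p = 4.60e-04). Pdk4, a pyruvate dehydrogenase kinase, fell to 20.6 ± 3.24 CPM with forskolin, against 45.2 ± 4.40 CPM with DMSO (log2 change −1.11 ± 0.20, adjusted p = 0.0121). The Pdk4 call was lost without forskolin B (0.0769) or DMSO A (0.0817). With A and B alone, 11 genes of the list were tested, of which 3 rose and 1 fell. In that fit 5.86% of all genes were called higher and 3.9% lower.

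Of the cAMP/CREB targets, which serve as a measure of the forskolin response, 13 of 14 tested rose and 0 fell. The list was chosen with earlier results of these data known, so that this count does not test the response. Over all tested genes, 2.22% were called higher and 0.572% lower. The median log2 change of the list was 3.20. All 14 had an unadjusted p below 0.05, against 12.1% of all tested genes, and the other tools called 0 of the list lower. Nr4a1 and Nr4a3 (orphan nuclear receptors), Sik1 (a salt-inducible kinase) and Crem (source of the repressor ICER) had log2 changes of 3.44 ± 0.13, 4.76 ± 0.18, 4.14 ± 0.17 and 3.53 ± 0.16. The log2 change of Gadd45a (1.59) was below each of these and above those of Per1 (1.096 ± 0.14), a circadian clock gene, and Dusp1 (1.25 ± 0.18), a MAP kinase phosphatase, which also rose and were the lowest of the list. Per1 and Dusp1 were picked after their values were seen, and the differences between genes were not tested.

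**Figure D5:**
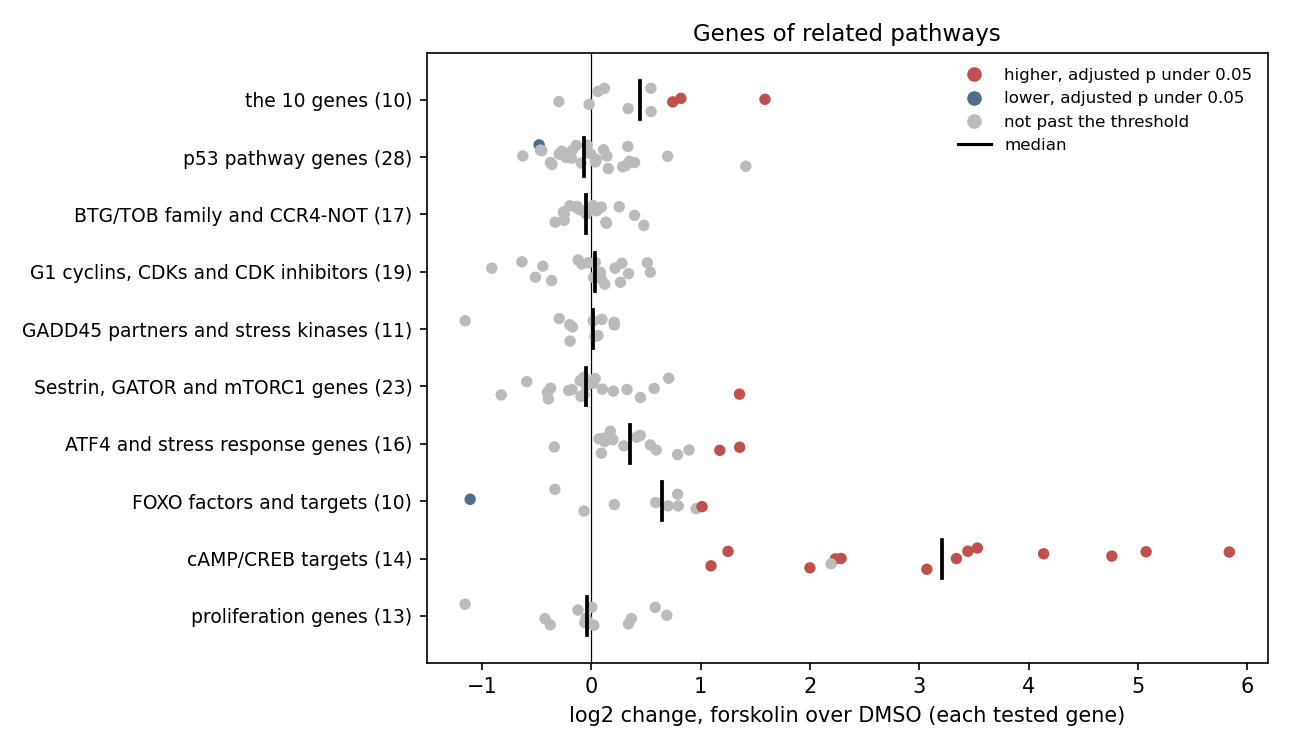
Log2 change, forskolin over DMSO, of every tested gene in each list (number tested in brackets), with red for higher and blue for lower at an adjusted p of 0.05, grey for genes that did not pass, and a bar at the median. The 10 genes have a median of 0.44 with 3 red points, p53 pathway genes a median of −0.06 with 1 blue point, and cAMP/CREB targets a median of 3.20 with 13 red points.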

How the data were processed

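RNA sequencing libraries of 6 cultures were compared. The deposited table holds exon counts for each gene. It was made with STAR and HOMER on mm10, per the submitters' processing notes; for versions and counting settings, the sources used here give nothing. The deposited values come in steps of 0.5, for which the sources give no reason. Since they are not all whole, the deposited values were given the unit of expected counts and taken further by rounding to whole numbers, ties to even. In R 4.3.3, edgeR 4.0.16 was used with filterByExpr (12233 genes kept), TMM factors and the quasi-likelihood test with robust dispersions; CPM values scale each library to 1000000 counts and use TMM-scaled sizes, except marker sums and single markers, which use column totals. SEs are the absolute log2 change divided by the square root of F, and 95% intervals use the moderated degrees of freedom. The common biological coefficient of variation was 0.213. Replicate letters gave same-letter correlations of deviations of 0.048, 0.133 and 0.150, and were not treated as pairs in the main fit. Library totals ran from 2770454 to 10607918 counts, and 3 counts correspond to 0.283 to 1.08 CPM.

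Alternatives were RLE, upper quartile and no scaling factors, 3 filters, DESeq2 1.42.0, limma-voom (limma 3.58.1) with and without quality weights, the likelihood ratio test, a replicate block, rounding up, and leaving out each library or both C libraries. The edgeR script was tested on simulated counts. The 10 genes and the lists were chosen with earlier results of these data known. Named genes are the 10, up to 4 called genes per list by p or, where none was called, the most abundant, and the 3 nearest profiles to the strongest call; Trp53, Pmaip1, Tob2, Btg3, Sesn3, Mdm4, Cdkn1b, Trf, E230016M11Rik, Hand2, Des, Col1a1, Spp1, Sox9, Per1 and Dusp1 were named after seeing their values. The lymphocyte marker list is not reported here.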

Additional observations from a re-analysis of the deposited data

How the results depend on the processing

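Gadd45a kept its call and direction in all 19 alternatives (log2 change 1.32 to 1.72). The number of the 10 genes called higher was 3 in the main fit, and 1 to 3 when each library was left out in turn. It was 2 with upper quartile factors and 4 with sample quality weights, where Gadd45b was added (adjusted p = 0.0208, limma-voom). It was 5 with no filter, with the replicate block and without both C libraries. The number called lower was 0 throughout. Over all genes, 342 were called, 272 higher and 70 lower. With no filter these were 620, 463 and 157, by DESeq2 553, 409 and 144, and by the likelihood ratio test 648, 458 and 190. With sample quality weights they were 989, 598 and 391, with the replicate block 649, 455 and 194, and without both C libraries 1229, 738 and 491. Limma-voom called 131 lower. Leaving out 1 library at a time gave 185 to 485 in all, 162 to 372 higher and 21 to 113 lower. For these counts the cause was not tested. The labels do not say whether same-letter libraries share more than a letter, so the replicate block assumes a pairing that is not stated. Not every library correlated best with its own letter. Whether the letters pair the samples thus remains unknown. Differences in within-library ratios were recomputed with another prior, with 1 library left out and, chosen after seeing the data, without both C libraries, and kept their sign; a replicate block cannot change them in a balanced design. Without both C libraries they were 0.88 (Gadd45a/Gadd45b), 1.097 (Gadd45a/Gadd45g), 0.22 (Gadd45b/Gadd45g), −1.04 (Sesn1/Sesn2), −0.085 (Btg1/Btg2) and −0.52 (Tob1/Btg2), against 1.02, 1.23, 0.21, −0.35, −0.07 and −0.31 in all 6. With 1 library left out, Sesn1/Sesn2 ran from −0.75 to −0.059. Reversed estimates were all of genes that did not pass: Cdkn1a −0.25 without forskolin C and −0.05 without DMSO B; Mdm2 0.08, 0.07 and 0.15 without forskolin A, forskolin B and DMSO C; Sesn2 −0.02 and −0.038 without forskolin A and DMSO A; Pabpc1 −0.014 with quality weights, −0.022 without both C libraries, −0.23 without forskolin C and −0.05 without DMSO B; Ccnd2 −0.022 without DMSO C; Pcna −0.010 without forskolin C. With 1 library left out at a time, these estimates ran from −0.25 to 0.40 (Cdkn1a), −0.22 to 0.15 (Mdm2), −0.038 to 0.16 (Sesn2), −0.23 to 0.31 (Pabpc1), −0.022 to 0.30 (Ccnd2) and −0.010 to 0.57 (Pcna). Sesn1 has no value under the filter of 10 CPM. Depth limits Sesn1 most, at 18 to 92.5 counts per library.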

Other observations

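Relatives of the 10 genes, named after their values were seen, had smaller changes than Gadd45a. Tob2, the closest relative of Tob1, had the clearest difference, at 372 ± 46.1 CPM with forskolin and 266 ± 17.0 CPM with DMSO (SD, n = 3 each) with no overlap. Its log2 change of 0.48 ± 0.12 did not pass in the 6-library quasi-likelihood fit (adjusted p = 0.0835). Of the 19 alternatives, 7 called it higher. With all 6 libraries these included DESeq2 (adjusted p = 0.0148), limma-voom (0.0302) and the likelihood ratio test (0.0181). Without both C libraries it passed as well (0.42, adjusted p = 3.35e-04). The adjusted p ranged from 3.35e-04 to 0.340 over the alternatives. Btg3, a further family member, was low, at 14.02 ± 3.69 CPM with forskolin and 10.5 ± 1.00 CPM with DMSO (log2 change 0.40, 95% interval −0.29 to 1.08). Its groups did not overlap, though forskolin B (11.6) and DMSO C (11.5) were nearly level. Cdkn1b (p27), a CDK inhibitor like p21, was at 56.4 ± 1.90 CPM with forskolin and 46.8 ± 6.997 CPM with DMSO (log2 change 0.27, 95% interval −0.09 to 0.62). Its groups did not overlap, though forskolin C (54.4) and DMSO B (54.2) were nearly level. Every forskolin value lay above every DMSO value in 10.7% of tested genes. Mdm4, the partner of Mdm2, was at 80.6 ± 12.3 CPM with forskolin and 72.1 ± 9.24 CPM with DMSO (log2 change 0.14, −0.20 to 0.49), and Sesn3 at 15.1 ± 7.28 CPM with forskolin and 10.7 ± 1.11 CPM with DMSO (0.45, −0.37 to 1.27). For Mdm4 and Sesn3 the groups overlapped.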
